A study of Mus musculus with 96 samples.

Results

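The genes described here encode the nuclear subunits of the oxidative phosphorylation machinery of the inner mitochondrial membrane. They were chosen by symbol, as the genes of complex I (Ndufa, Ndufb, Ndufc, Ndufs and Ndufv), complex II (Sdha to Sdhd), complex III (Uqcr), complex IV (Cox4 to Cox8) and complex V (Atp5), each read from its brightest probe. The rule gave 80 of the 16593 genes on the array, of which 35 belonged to complex I, 3 to complex II, 8 to complex III, 18 to complex IV and 16 to complex V. A symbol rule takes in a few neighbours of the strict subunit set: Ndufs5-ps is a pseudogene, Ndufa4 is now counted with complex IV, and Cox7a2l helps to join complexes into supercomplexes. Sdha is not analysed here, and the rule does not cover the genes of the mitochondrial genome.

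Complexes I to IV pass electrons from NADH and succinate to oxygen, and complexes I, III and IV pump protons. Complex V uses the proton gradient to make ATP. Most subunits are encoded in the nucleus and imported, and several of complex IV exist as paired genes, one used widely and the other in heart and skeletal muscle or testis. In immune tissue these genes are known for high activity in dividing and activated lymphocytes and in developing red cells.

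Expression was measured in whole spleen and whole blood of 48 male mice during collagen induced arthritis, with all mice immunised and none untreated. Strain C57BL/10.Q/rhd.Ncf1m1J, called Ncf1m1J here, carries a mutation of Ncf1, a subunit of the phagocyte NADPH oxidase, and C57BL/10.Q/rhd, called wt here, is its wild type on the same background. Tissues were taken 44 or 15 days after immunisation, which gave 8 groups of 12 mice by tissue, genotype and day, without sorting or culture. Each group held 6 mice of experiment II and 6 of experiment I, and the experiments differed in how RNA was isolated (Qiagen kits with stabilised samples in II, Ambion kits in I, with lithium chloride purification of blood RNA in I). All RNA went through globin removal before amplification. All values below are log2 of the deposited array intensity, and a difference of 1 is a doubling.

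As a check of the labels, the Ncf1 probe was lower in Ncf1m1J than in wt tissue, at -0.86 ± 0.06 in spleen (log2 difference ± SE, adjusted p = 1.9e-14 in limma) and -0.55 ± 0.07 in blood (adjusted p = 1.1e-06 in limma). The probe of the median gene read 6.47 in spleen and 6.25 in blood. Of the 80 subunit genes, 11 had a mean below that level in every spleen group and 12 in every blood group, among them Ndufs1, Ndufab1, Ndufb4, Uqcrfs1, Uqcrq and the testis or muscle forms Cox7b2, Cox8b and Cox8c. Those genes were kept in every count, and a change in them is hard to see so near the background. Pancreatic transcripts were raised in 6 spleen and 9 blood arrays, in which the exocrine pancreas list stood more than 1 log2 unit over the median array.

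The spleen arrays of experiment I fell into separate sets, and this touches most spleen results below. Over the 80 genes, the first principal component of those 24 arrays held 71.2% of the variance, and the arrays lay on either side of a gap as wide as 43.1% of its range, with 14 above and 10 below. The side followed the day incompletely. Above the gap were 11 of the 12 day 44 arrays (5 of 6 Ncf1m1J and 6 of 6 wt) and 3 of the 12 day 15 arrays (2 of 6 Ncf1m1J and 1 of 6 wt). Genotypes were equal on each side, with 7 Ncf1m1J and 7 wt above and 5 Ncf1m1J and 5 wt below. The same component computed from all other genes correlated with it at r = 0.95 over the 24 arrays, so the split was not particular to these genes. In experiment II the largest gap on the first component of the spleen arrays was 14.6% of the range and set apart 1 array. What the arrays on a side share, beyond the day, is not given in the sources used here.

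Ndufa3, an accessory subunit of complex I, read 9.73 to 11.32 in the 14 arrays above the gap (median 10.98) and 11.78 to 12.30 in the 10 below it (median 12.04). Ndufv1, the NADH-binding subunit of complex I, went the other way, with 12.24 to 12.89 above the gap (median 12.66) and 11.74 to 12.08 below it (median 11.84). Neither gene overlapped between the sides, which the component itself would favour, so no test is given. B cell markers were lower on most of the same arrays: the mean of 11 B cell genes was 8.90 to 9.63 above the gap (median 9.27) and 9.33 to 10.61 below it (median 10.31). The erythroid list did not follow the sides, with 9.49 to 10.42 above and 8.75 to 10.43 below.

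**Figure D1:**
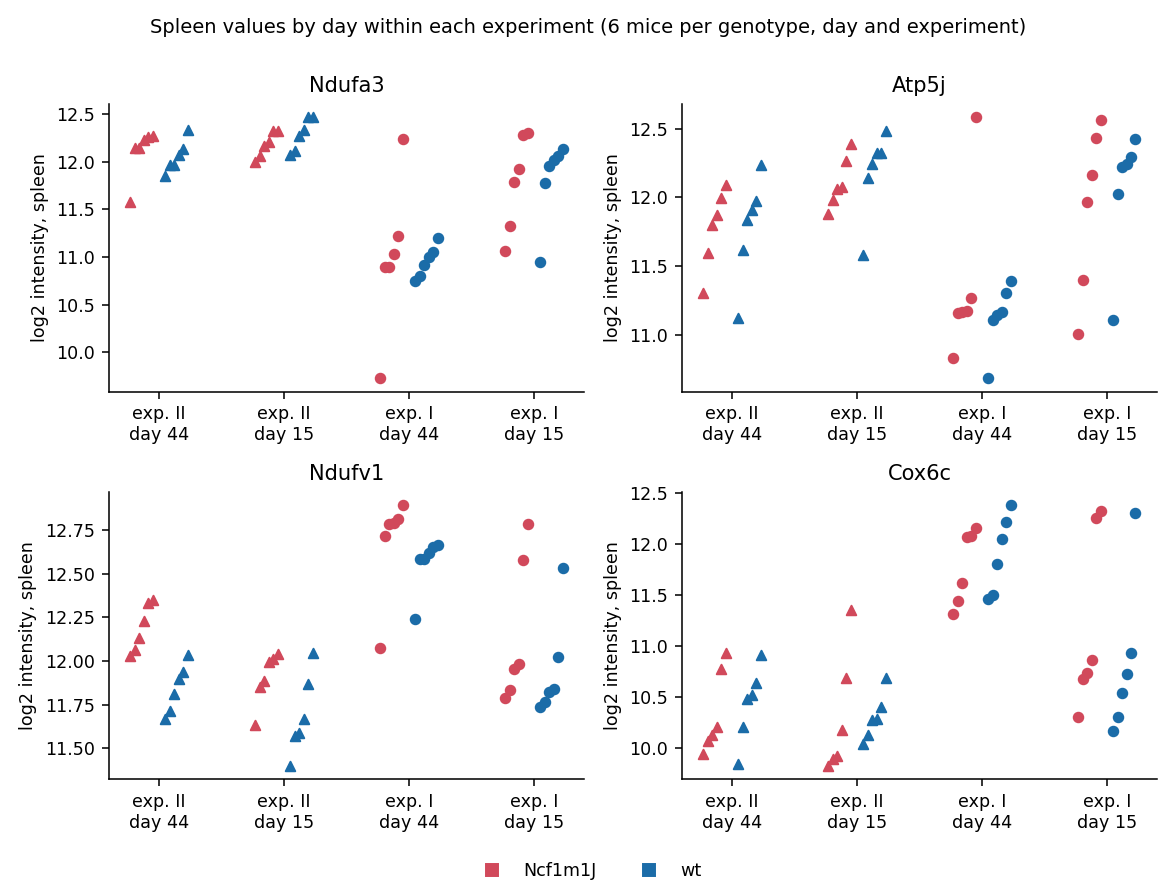
Log2 intensity (vertical axes) of Ndufa3, Atp5j, Ndufv1 and Cox6c in each spleen, by day within each experiment (horizontal axis), with 1 point per mouse coloured by genotype. In experiment I, 3 of the 12 day 15 mice lie at the levels of the day 44 mice and, for Ndufa3, Atp5j and Ndufv1, 1 day 44 mouse lies at the levels of the day 15 mice, while in experiment II the days overlap.

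The comparison of genotypes asked which genes differ when the NADPH oxidase subunit is mutated. In spleen, averaged over both days, 5 of the 80 subunit genes rose and 1 fell in Ncf1m1J mice at an adjusted p under 0.05 in limma over all genes, where 5.66% of all genes rose and 4.88% fell. The median difference was 0.04 over the 80 genes and -0.01 over all genes. By complex, 3 of 35 genes rose in complex I, 0 of 3 changed in complex II, 0 of 8 in complex III, 1 rose and 1 fell of 18 in complex IV, and 1 of 16 rose in complex V. The share of subunit genes that rose was thus near that of all genes, and the share that fell, 1 of 80, was below the 4.88% of all genes.

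The gene that fell was Cox6a2, the heart and skeletal muscle form of a small complex IV subunit. At day 44 its spleen values were 7.42 to 7.86 in Ncf1m1J mice (median 7.77) and 8.08 to 8.75 in wt mice (median 8.48). All 12 Ncf1m1J spleens lay below all 12 wt spleens. At day 15 the values were 7.16 to 8.38 in Ncf1m1J mice (median 7.85) and 7.80 to 9.12 in wt mice (median 8.41), so the groups overlapped. The difference over both days was -0.67 ± 0.08, or 1.59-fold lower (adjusted p = 1.8e-07 in limma), with -0.68 in experiment II and -0.66 in experiment I. It was -0.76 ± 0.12 at day 44 (adjusted p = 2.4e-05) and -0.59 ± 0.12 at day 15 (adjusted p = 0.0079), again by limma. Its widely used partner Cox6a1 had a difference of -0.01 (adjusted p = 0.99 in limma).

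Several lists of cell markers moved with Cox6a2 across spleens, among them plasmacytoid dendritic cells, a list added after the Cox6a2 values were seen. Of 11 such genes measured in spleen, 6 fell in Ncf1m1J mice and 0 rose. Siglech, a receptor of these cells in mouse, averaged 8.87 ± 0.83 at day 44 and 8.76 ± 0.79 at day 15 in Ncf1m1J spleens, against 9.74 ± 0.80 at day 44 and 9.46 ± 0.54 at day 15 in wt spleens (SD, n = 12 each). Its difference over both days was -0.79 ± 0.13 (adjusted p = 2.8e-05 in limma). The mean of the 11 genes was 8.10 to 8.49 in Ncf1m1J and 8.50 to 8.96 in wt spleens at day 44, and 7.99 to 8.56 in Ncf1m1J and 8.44 to 9.02 in wt spleens at day 15. After removal of group and experiment means, Cox6a2 correlated with the mean of the plasmacytoid list at r = 0.57 over the 48 spleen arrays, whose RNA and array handling is shared between genes. The single genes of that list ranged from -0.36 (Irf8) to 0.57 (Siglech), with -0.06 for Cd300c, 0.03 for Ccr9 and 0.11 for Klk1. Other lists lay as far from 0 in spleen, at -0.55 for neutrophil precursor granules, -0.53 for the cell cycle and -0.52 for erythroid genes, with 0.32 for muscle genes. In blood the plasmacytoid list gave 0.52, its genes -0.44 (Bst2) to 0.61 (Siglech), and the muscle list 0.53. Of 12 heart and skeletal muscle genes, 10 lay below the median gene in spleen. In whole tissue, fewer cells of a type and less RNA per cell cannot be told apart, and the part of any of these cells in the Cox6a2 difference was not tested.

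Cox6b2, the testis form of another complex IV subunit, was the gene with the largest rise. In spleen at day 44 it read 7.16 to 8.68 in Ncf1m1J mice (median 7.96) and 6.79 to 8.18 in wt mice (median 7.57), and at day 15 it read 7.03 to 8.14 in Ncf1m1J mice (median 7.85) and 6.91 to 8.57 in wt mice (median 7.30). The groups overlapped on both days. The difference was 0.40 ± 0.10, or 1.32-fold (adjusted p = 0.0052 in limma), with 0.47 in experiment II and 0.33 in experiment I. At day 44 alone it was 0.47 ± 0.14 (adjusted p = 0.040 in limma), and at day 15 it was 0.32 ± 0.14 (adjusted p = 0.31 in limma). A second Cox6b2 probe, below the median gene, gave 0.03. Over the 48 arrays of a tissue, Cox6b2 followed the mean of 14 erythroid genes at r = 0.72 in spleen and r = 0.86 in blood after removal of group and experiment means. It was not tied to that list alone. In spleen it gave 0.66 with the cell cycle, 0.53 with neutrophil precursor granules and -0.57 with T cells. In blood it gave 0.56 with mature neutrophils and 0.53 with platelets and megakaryocytes. Of the 14 erythroid genes, 10 rose in Ncf1m1J spleen and 0 fell, with a median of 0.87. The erythroid mean was 10.10 to 10.51 in Ncf1m1J and 8.60 to 10.42 in wt spleens at day 44, and 9.60 to 10.76 in Ncf1m1J and 8.67 to 10.30 in wt spleens at day 15. The part of any of these cells in the Cox6b2 difference was not tested.

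The other risers in spleen were small. Atp5o, which joins the catalytic head of complex V to its stalk, averaged 7.59 ± 0.65 at day 44 and 7.51 ± 0.51 at day 15 in Ncf1m1J mice, against 7.32 ± 0.54 at day 44 and 7.25 ± 0.41 at day 15 in wt mice (SD, n = 12 each). Its difference was 0.26 ± 0.08 (adjusted p = 0.026 in limma), with 0.13 in experiment II and 0.40 in experiment I. Ndufv1 rose by 0.22 ± 0.07 (adjusted p = 0.044 in limma) and its neighbour in the NADH-oxidising module, Ndufv2, by 0.12 ± 0.04 (adjusted p = 0.031 in limma). Ndufb8, a subunit of the membrane arm of complex I, rose by 0.14 ± 0.05 (adjusted p = 0.041 in limma). For each of these 4 genes the Ncf1m1J and wt values overlapped on both days. Of the other muscle or testis forms of complex IV, Cox7a1 gave -0.06, Cox8c -0.05, Cox7b2 0.05 and Cox8b -0.03, none past the threshold (adjusted p-values of 0.30 to 0.62 in limma). Without the 4 spleen arrays of experiment I that lay with the other day, Cox6a2, Cox6b2 and Ndufv1 kept their calls, and Atp5o, Ndufb8 and Ndufv2 missed the threshold, with adjusted p-values of 0.084, 0.10 and 0.087 in limma.

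**Figure D2:**
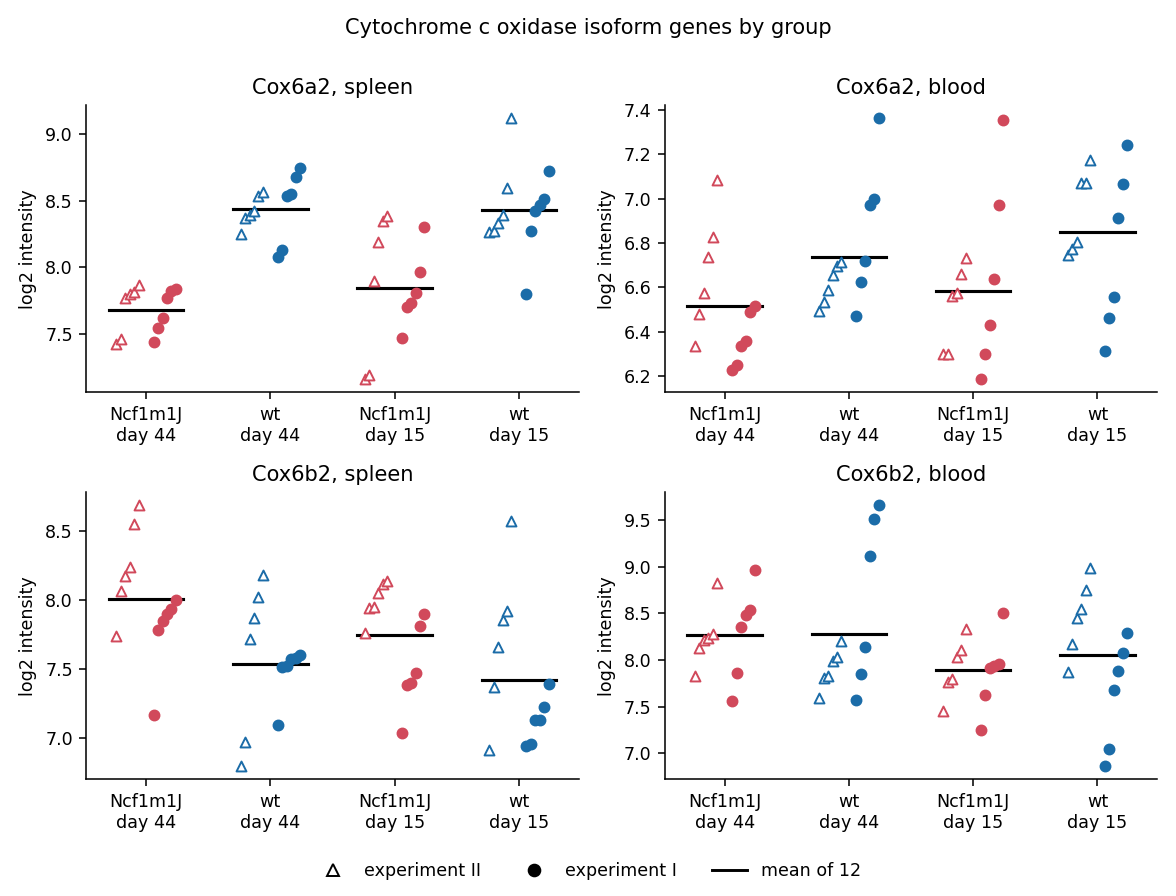
Log2 intensity (vertical axes) of Cox6a2 and Cox6b2 in spleen and blood of each mouse, by genotype and day (horizontal axis), with open triangles for experiment II, filled circles for experiment I and a line at the mean of 12 mice. At day 44 every Ncf1m1J spleen (7.42 to 7.86) lies below every wt spleen (8.08 to 8.75) for Cox6a2, and the Cox6b2 groups overlap.

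At the single days, 1 gene rose (Cox6b2) and 1 fell (Cox6a2) of the 80 at day 44, where 3.09% of all genes rose and 2.1% fell, and 0 rose and 1 fell (Cox6a2) at day 15, where 1.93% rose and 0.542% fell. The genotype difference did not depend detectably on the day: in the test of that dependence 0 of 80 subunit genes were called in spleen by limma (0 at an unadjusted p under 0.05), with 0% of all genes called higher and 0% lower.

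Lists of neighbouring pathways, chosen by function, differed in how many of their genes changed with genotype in spleen. Of all genes, 5.66% rose and 4.88% fell in that comparison. Of 40 assembly factors, which build the complexes, 0 changed with genotype, and of 17 regulators of mitochondrial genes 0 changed. Of 19 electron and nucleotide carriers, 2 rose, the outer membrane channels Vdac2 (0.27 ± 0.07, adjusted p = 0.0035 in limma) and Vdac1 (0.17 ± 0.05, adjusted p = 0.014 in limma). Of 18 genes of the tricarboxylic acid cycle and pyruvate dehydrogenase, 1 rose, Dlat, by 0.08 ± 0.03 (adjusted p = 0.049 in limma). Of 17 glycolysis genes 4 rose and 0 fell: the hexokinase Hk3 by 0.58 ± 0.12, the phosphofructokinase Pfkm by 0.57 ± 0.10, the glucose transporter Slc2a3 by 0.35 ± 0.05 and Tpi1 by 0.21 ± 0.07 (adjusted p-values of 0.00062, 7.9e-05, 4.9e-06 and 0.048 in limma). Markers of other cells moved far more in the same spleens, with 10 of 10 neutrophil precursor granule genes and 11 of 13 cell cycle genes higher, and 9 of 10 T cell and 9 of 11 B cell genes lower. Their part in the pathway differences was not tested.

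In blood, 0 of the 80 subunit genes were called between genotypes over both days by limma (2 at an unadjusted p under 0.05), where 0.97% of all genes rose and 0.163% fell. At day 44 the counts were again 0 of 80 (2 at an unadjusted p under 0.05), with 0.681% of all genes higher and 0.753% lower, and at day 15 they were 0 of 80 (3 at an unadjusted p under 0.05), with 0.133% higher and 0.0121% lower. The medians of the 80 differences were 0.01 over both days, 0.03 at day 44 and 0.01 at day 15. Cox6a2 was lower here too, with -0.24 ± 0.08 (adjusted p = 0.19 in limma), from 6.52 ± 0.25 at day 44 and 6.59 ± 0.33 at day 15 in Ncf1m1J mice, against 6.74 ± 0.26 at day 44 and 6.85 ± 0.29 at day 15 in wt mice (SD, n = 12 each). Cox6b2 gave -0.08 ± 0.16 (adjusted p = 0.98 in limma). In experiment II alone 4 genes were called over both days, Ndufs4, Ndufb8, Sdhb and Ndufa6, with rises of 0.19 to 0.23, where 2.19% of all genes rose and 1.89% fell. Experiment I alone called 0, where 0.108% of all genes rose and 0% fell. The difference between the experiments in the genotype effect was itself tested, with 0 of 80 genes called in blood by limma (1 at an unadjusted p under 0.05, 0% of all genes higher and 0.0121% lower) and 0 of 80 in spleen (3 at an unadjusted p under 0.05, 0% higher and 0% lower). Whether the genotype difference changed with the day gave 0 of 80 in blood, with 2 at an unadjusted p under 0.05 in limma (0% of all genes higher and 0.00603% lower).

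The genotype difference in spleen was set against that in blood of the same mouse. Of the 80 genes, 1 was higher (Atp5b) and 1 lower (Cox6a2) in this comparison, where 2.87% of all genes were higher and 1.24% lower. Atp5b encodes the catalytic beta subunit of complex V. In spleen it read 14.19 ± 0.25 at day 44 and 14.09 ± 0.20 at day 15 in Ncf1m1J mice, and 14.05 ± 0.21 at day 44 and 13.94 ± 0.29 at day 15 in wt mice. In blood it read 14.18 ± 0.31 at day 44 and 14.28 ± 0.22 at day 15 in Ncf1m1J mice, and 14.32 ± 0.27 at day 44 and 14.41 ± 0.16 at day 15 in wt mice (SD, n = 12 each). The spleen difference of 0.15 ± 0.06 and the blood difference of -0.13 ± 0.04 did not pass the threshold alone (adjusted p-values of 0.091 and 0.15 in limma), but they lay on opposite sides of 0 and differed by 0.27 ± 0.06 (adjusted p = 0.0015 in limma). For Cox6a2 the spleen minus blood value of that difference was -0.43 ± 0.11 (adjusted p = 0.011 in limma). Without the mice that had raised pancreatic transcripts in the array of either tissue, that value was -0.31 (adjusted p = 0.28 in limma). That fit held fewer mice, which also lowers its power.

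**Figure D3:**
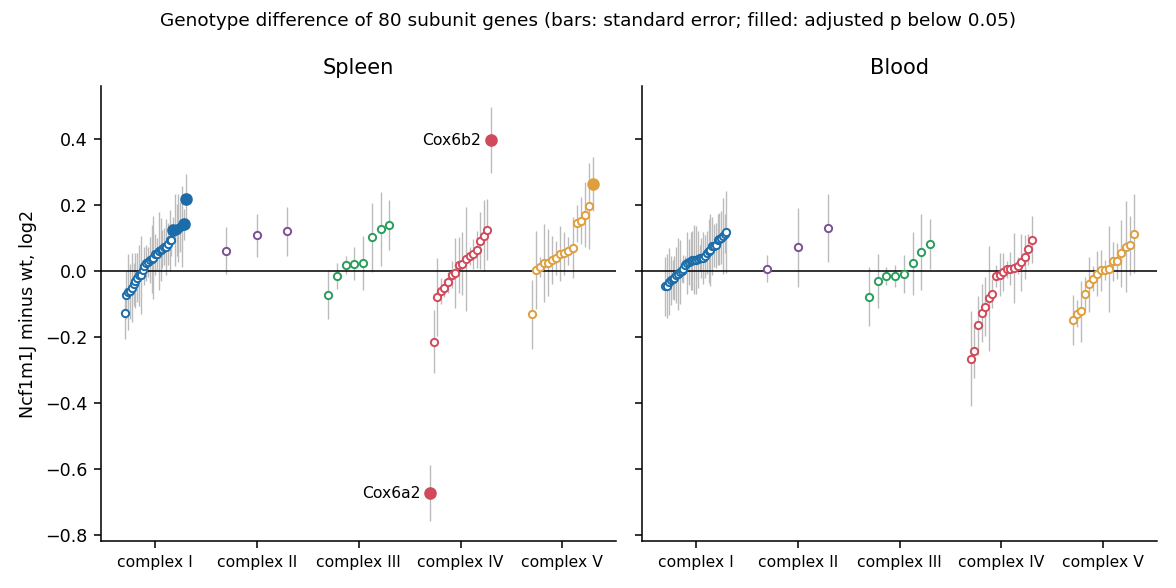
Ncf1m1J minus wt log2 difference (vertical axis, bars of 1 standard error) of the 80 subunit genes in spleen and blood, by complex (horizontal axis), with filled points past the threshold. In spleen Cox6a2 (-0.67) and Cox6b2 (0.40) stand apart from the other members of complex IV, and in blood 0 of 80 points are filled.

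Between day 44 and day 15 more subunit genes were called in spleen than between genotypes, and the calls rested on experiment I. With both experiments fitted together, 10 of the 80 genes rose and 25 fell at day 44 at an adjusted p under 0.05 in limma, where 11.5% of all genes rose and 11.4% fell. The median difference was -0.08 over the 80 genes and 0.00 over all genes. In complex I, 7 of 35 rose and 12 fell, in complex II 0 of 3 changed, in complex III 0 rose and 2 of 8 fell, in complex IV 2 rose and 5 of 18 fell, and in complex V 1 rose and 6 of 16 fell. Experiment II alone called 0 of the 80 genes, where 0.00603% of all genes rose and 0% fell. Experiment I alone called 14 higher and 30 lower, where 14.8% of all genes rose and 16% fell. Of the 35 genes called together, 31 had the same sign in both experiments. The joint fit favours such genes, since it averages both experiments, so this count is no replication. The share among all called genes was not computed.

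Among the genes that fell, Atp5j, a subunit of the stalk of complex V, read 11.13 to 12.24 at day 44 (median 11.86) and 11.58 to 12.49 at day 15 (median 12.19) in experiment II. In experiment I it read 10.68 to 12.59 at day 44 (median 11.17) and 11.01 to 12.56 at day 15 (median 12.19). The days overlapped in both experiments, and in experiment I 11 of the 12 day 44 mice lay at or below 11.39, with the remaining one at 12.59. Its difference was -0.55 ± 0.12 (adjusted p = 0.0014 in limma), with -0.37 in experiment II and -0.74 in experiment I. Ndufa5, of the matrix arm of complex I, fell, at -0.51 ± 0.13 (adjusted p = 0.0034 in limma), with -0.30 in experiment II and -0.72 in experiment I. Ndufa3 fell, at -0.49 ± 0.12 (adjusted p = 0.0031 in limma), and here experiment II gave -0.15 and experiment I -0.82.

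The further genes that fell came from every complex but II. In complex V they included Atp5g2 (-0.44 ± 0.11) and Atp5g1 (-0.40 ± 0.10), 2 of the genes for the proton-carrying ring, and Atp5l (-0.36 ± 0.09), with adjusted p-values of 0.0029, 0.0036 and 0.0043 in limma. In complex I they included Ndufs8 (-0.42 ± 0.11), which carries iron-sulfur clusters, and Ndufc1 (-0.40 ± 0.11), with adjusted p-values of 0.0062 and 0.0063 in limma. In complex IV, Cox8a, Cox7c, Cox6b1 and Cox6a1 fell, at -0.38, -0.37, -0.36 and -0.32 (adjusted p-values of 0.016, 0.0049, 0.0026 and 0.026 in limma). In complex III, the hinge subunit Uqcrh and the core subunit Uqcrc2 fell, at -0.35 ± 0.08 and -0.27 ± 0.07 (adjusted p-values of 0.0027 and 0.0065 in limma). Several of these falls were smaller or absent in experiment II. The day difference was higher there than in experiment I by 0.88 for Ndufs8, 0.77 for Cox8a, 0.62 for Ndufc1 and Atp5g2, 0.61 for Cox6a1 and 0.55 for Atp5g1 (adjusted p-values of 0.0024 to 0.042 in limma). For Atp5l, Cox7c, Cox6b1, Uqcrh and Uqcrc2 it was not called different (0.075 to 0.56). Second probes above the median gene gave -0.40 for Cox6b1, -0.40 for Ndufc1 and -0.32 for Cox6a1, close to the brightest probes, while a dimmer Atp5j probe gave -0.11. For Ndufb6 the brightest probe gave -0.30 and a second one above the median gene -0.04, and for Ndufa8 they gave -0.21 and -0.12. Probes disagreed for Ndufs4, whose brightest probe gave -0.18 and a dimmer one 0.66, and for Ndufv3, with -0.06 and -0.26.

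The 10 genes that rose were led by Cox6c, a small complex IV subunit, at 0.46 ± 0.16 (adjusted p = 0.031 in limma). It read 9.85 to 10.93 at day 44 (median 10.35) and 9.82 to 11.36 at day 15 (median 10.23) in experiment II, against 11.31 to 12.39 at day 44 (median 11.93) and 10.17 to 12.33 at day 15 (median 10.73) in experiment I. The days overlapped in experiment II throughout. Ndufb5, Ndufb2 and Ndufb10 of the membrane arm of complex I rose by 0.44 ± 0.12, 0.42 ± 0.12 and 0.39 ± 0.10 (adjusted p-values of 0.0056, 0.010 and 0.0055 in limma). Atp5a1, the alpha subunit of complex V, rose by 0.44 ± 0.13 (adjusted p = 0.013 in limma). Ndufv1 had the smallest adjusted p of the 80 genes, at 0.39 ± 0.07 (adjusted p = 0.00072 in limma), with 0.22 in experiment II and 0.56 in experiment I. In experiment II it read 11.67 to 12.35 at day 44 and 11.40 to 12.05 at day 15, and in experiment I 12.08 to 12.89 at day 44 and 11.74 to 12.79 at day 15. Ndufa10, Ndufa13, Ndufb11 and Cox4i1 were the other 4, at 0.12 to 0.29.

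The windows before the start of transcription were read for motifs of the factors known for these genes. RefSeq (GRCm38.p6) held windows of 250 bases before to 50 after the start for 65 of the 80 genes, 70 windows in all, against 32851 windows over all genes. On either strand, the NRF1 motif GCGCATG was in 12 of the 70 windows (17.1%) and in 3.91% of all windows. The ETS motif CCGGAAG, bound by GABPA, was in 16 (22.9%, against 8.86%), and the YY1 motif AAGATGGC in 10 (14.3%, against 2.75%). The ERR motif CAAGGTCA was in 3 (4.29%, against 1.56%), the SP1 motif GGGCGG in 29 (41.4%, against 35.7%) and the letters TATAAA in 8 (11.4%, against 13.6%). An NRF1, ETS or YY1 motif was in 42.9% of the 70 windows and in 14.2% of all windows. Of the 23 genes with a window that fell in spleen at day 44, 15 held such a motif. Of the 7 that rose 0 did, and of the 35 without a call 15 did. For SP1 the counts were 10 of 23, 2 of 7 and 16 of 35. The shares among all genes that fell or rose were not computed, and the calls rested on experiment I. The motif numbers are counts of letters, with no test, and genes that share a motif are not independent of each other.

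The 250 bases before the start, without the transcribed part, are given for 3 genes that fell with a motif and 2 that rose without one, chosen after their values were seen, 5′ to 3′ on the strand of the gene, with the motifs above in capitals. The Atp5j window lies at chr16:84834977-84835226 on the minus strand and holds a YY1 and an ETS motif. That of Atp5g2 lies at chr15:102671048-102671297 on the minus strand, with an NRF1 motif read on both strands that overlap. That of Cox6a1 lies at chr5:115348959-115349208 on the minus strand, with NRF1 on both overlapping strands, SP1 and ETS. Those of Ndufv1 (chr19:4012756-4013005 on the minus strand) and Ndufb5 (chr3:32736813-32737062 on the plus strand) hold none of the 6 motifs.
Atp5j: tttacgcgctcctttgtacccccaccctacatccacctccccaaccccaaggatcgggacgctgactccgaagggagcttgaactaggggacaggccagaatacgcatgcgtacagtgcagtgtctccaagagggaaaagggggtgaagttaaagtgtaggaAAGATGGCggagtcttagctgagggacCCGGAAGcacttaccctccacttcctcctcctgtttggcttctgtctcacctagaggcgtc
Atp5g2: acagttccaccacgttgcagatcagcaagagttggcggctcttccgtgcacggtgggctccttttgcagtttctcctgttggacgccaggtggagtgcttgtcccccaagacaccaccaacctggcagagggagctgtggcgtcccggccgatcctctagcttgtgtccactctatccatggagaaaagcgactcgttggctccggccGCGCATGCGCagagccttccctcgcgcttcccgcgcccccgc
Cox6a1: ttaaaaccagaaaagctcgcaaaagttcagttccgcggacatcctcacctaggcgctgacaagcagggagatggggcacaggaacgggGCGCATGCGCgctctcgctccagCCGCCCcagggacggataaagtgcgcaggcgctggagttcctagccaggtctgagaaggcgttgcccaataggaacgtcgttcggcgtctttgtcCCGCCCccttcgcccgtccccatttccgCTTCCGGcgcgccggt
Ndufv1: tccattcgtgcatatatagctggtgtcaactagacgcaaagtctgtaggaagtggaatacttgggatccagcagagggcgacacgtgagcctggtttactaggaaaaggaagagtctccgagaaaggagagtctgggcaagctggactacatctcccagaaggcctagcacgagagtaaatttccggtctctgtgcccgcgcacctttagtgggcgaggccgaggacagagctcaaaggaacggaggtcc
Ndufb5: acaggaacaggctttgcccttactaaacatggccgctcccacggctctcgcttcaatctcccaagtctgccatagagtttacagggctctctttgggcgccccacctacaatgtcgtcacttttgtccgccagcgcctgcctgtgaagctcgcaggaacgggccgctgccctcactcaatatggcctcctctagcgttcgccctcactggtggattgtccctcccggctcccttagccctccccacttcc

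Because the experiments disagreed, the difference between them in the day comparison was tested after the values were seen. The day difference was higher in experiment II than in experiment I for 16 of the 80 genes and lower for 2, where 7.74% of all genes were higher and 7.07% lower. Ndufs8 differed most, by 0.88 ± 0.19 (adjusted p = 0.0024 in limma). Its values were 10.72 to 11.46 at day 44 and 10.78 to 11.36 at day 15 in experiment II, against 10.39 to 11.56 at day 44 and 10.49 to 12.01 at day 15 in experiment I. Cox5b and Ndufs7 followed at 0.80 ± 0.18 and 0.78 ± 0.18 (adjusted p = 0.0037 for both in limma). Ndufa10 and Ndufb8 were the 2 lower genes, at -0.50 ± 0.16 and -0.29 ± 0.08 (adjusted p-values of 0.028 and 0.013 in limma).

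Without the 4 experiment I spleen arrays that lay with the other day, 13 genes were higher and 33 lower (16.1% and 16% of all genes), and since those arrays were picked by their values, these counts are a description. Without the 6 arrays with raised pancreatic transcripts, 1 gene was higher and 9 lower (2.6% and 3.17% of all genes). Without a term for the experiment, 3 were higher and 19 lower (5.6% and 4.77% of all genes). B cell markers moved on the same arrays: 10 of 11 fell at day 44, with a median of -0.55 over both experiments, -0.18 in experiment II and -0.87 in experiment I. Their part in the day difference of the subunit genes was not tested.

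**Figure D4:**
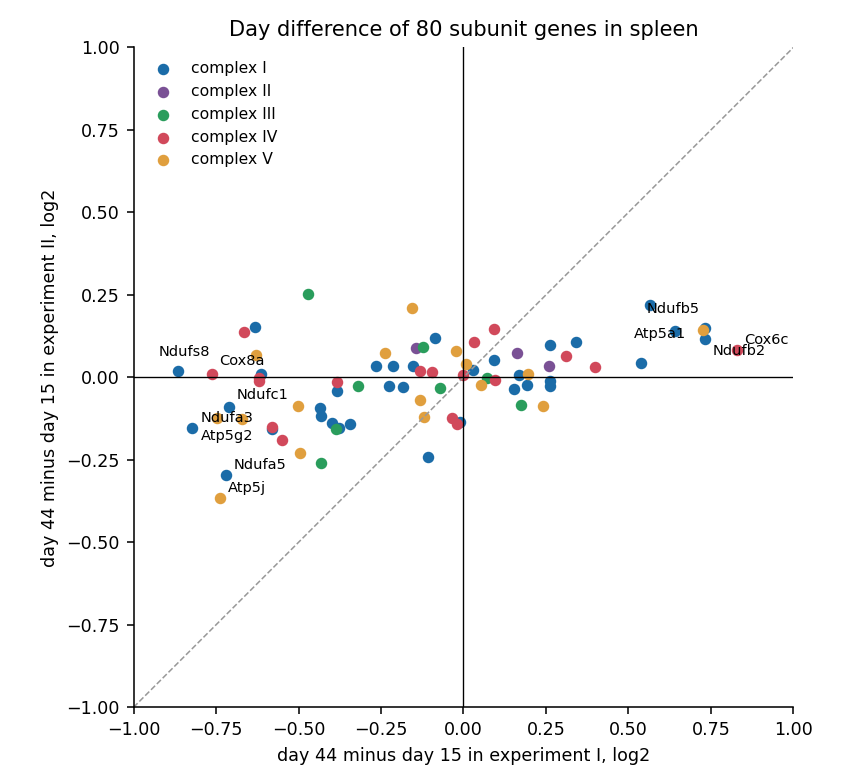
Day 44 minus day 15 log2 difference of the 80 subunit genes in spleen, in experiment II (vertical axis) against experiment I (horizontal axis), coloured by complex, with a dashed line of equality. The points spread from -0.87 to 0.83 in experiment I and from -0.37 (Atp5j) to 0.25 (Uqcrc1) in experiment II.

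The neighbouring pathways changed between days in spleen in both directions too, where 11.5% of all genes rose and 11.4% fell. Of 40 assembly factors 10 rose and 6 fell, of 19 carriers 5 rose and 2 fell, of 18 tricarboxylic acid cycle genes 3 rose and 5 fell, of 17 regulators 2 rose and 1 fell, and of 17 glycolysis genes 5 rose and 5 fell. The assembly factor Ecsit, needed to build complex I, rose by 0.62 ± 0.13, and Coq2, of ubiquinone synthesis, by 0.58 ± 0.15 (adjusted p-values of 0.0012 and 0.0046 in limma). The regulators that rose were Tfb1m, a mitochondrial ribosomal RNA methyltransferase, at 0.58 ± 0.13, and Nrf1, a transcription factor of many of these genes, at 0.45 ± 0.10, while the coactivator Ppargc1b fell, at -0.47 ± 0.11 (adjusted p-values of 0.0020, 0.0016 and 0.0031 in limma). For Nrf1, experiment II gave 0.12 and experiment I gave 0.79. The glycolytic enzymes Pkm and Ldha fell, at -0.50 ± 0.13 and -0.47 ± 0.11 (adjusted p-values of 0.0054 and 0.0022 in limma), with 0.05 and -0.07 in experiment II and -1.05 and -0.87 in experiment I. The assembly factor Cox10 rose by 0.19 ± 0.04 (adjusted p = 0.0022 in limma), with 0.20 in experiment II and 0.18 in experiment I.

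In blood, 0 of the 80 genes were called between day 44 and day 15 by limma (13 at an unadjusted p under 0.05), where 0.0603% of all genes rose and 0.0181% fell. The median was -0.01. Experiment II alone called 14 of the 80 genes, 12 higher and 2 lower at day 44, where 3.06% of all genes rose and 1.74% fell. Experiment I alone called 0, with 0% of all genes higher and 0% lower. The experiments differed for 1 gene, with 0 of 80 higher and 1 lower in experiment II than in experiment I (0.0422% of all genes higher and 0.108% lower). That gene was Ndufa1, a membrane arm subunit of complex I, at -0.56 ± 0.11 (adjusted p = 0.029 in limma). It read 11.91 to 12.34 at day 44 and 11.93 to 12.43 at day 15 in experiment II, and 11.80 to 12.60 at day 44 and 11.26 to 12.08 at day 15 in experiment I.

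The experiments differed in more of these genes than the days or the genotypes did. In spleen, 24 of the 80 genes were higher and 25 lower in experiment II than in experiment I, where 28.9% of all genes were higher and 26.2% lower. In blood, 18 were higher and 28 lower, where 36.2% of all genes were higher and 29.3% lower. In both tissues 7 genes were higher and 13 lower, 6 were called in opposite directions, 23 in spleen only, 20 in blood only and 11 in neither. The shares of all genes with these patterns were not computed, so the overlap is not read as a result about these genes. Over the 80 genes, the differences of the tissues correlated at r = 0.44, as a description across genes that share mice and kits.

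Atp5g2, one of the genes for the ring of complex V, was higher in experiment II in both tissues. It read 9.62 to 10.77 in experiment II and 8.73 to 10.28 in experiment I in spleen, and 9.18 to 9.75 in experiment II and 8.25 to 9.10 in experiment I in blood, where the 24 arrays of each experiment did not overlap. The differences were 0.96 in spleen and 0.72 in blood (adjusted p-values of 1.0e-10 and 1.1e-16 in limma). Sdhb, the iron-sulfur subunit of complex II, was lower in experiment II, with 8.41 to 9.51 against 9.19 to 10.22 in experiment I in spleen, and 7.66 to 8.34 against 8.19 to 9.77 in blood. Its differences were -0.66 and -0.87 (adjusted p-values of 6.5e-11 and 6.1e-10 in limma). Sdhc, a membrane anchor of the same complex, differed in opposite directions, at 0.42 in spleen and -0.78 in blood (adjusted p-values of 3.1e-07 and 1.9e-07 in limma). Cox5a had the largest difference in blood, at 1.07 (adjusted p = 4.3e-12 in limma), with 11.92 to 12.57 in experiment II and 10.16 to 12.38 in experiment I. Cox6c, Atp5pb and Ndufb5 had the largest in spleen, at -1.08, -1.07 and -1.04 (adjusted p-values of 1.1e-07, 1.2e-10 and 1.9e-10 in limma). Kit, tube and experiment coincide, so their parts cannot be told apart.

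**Figure D5:**
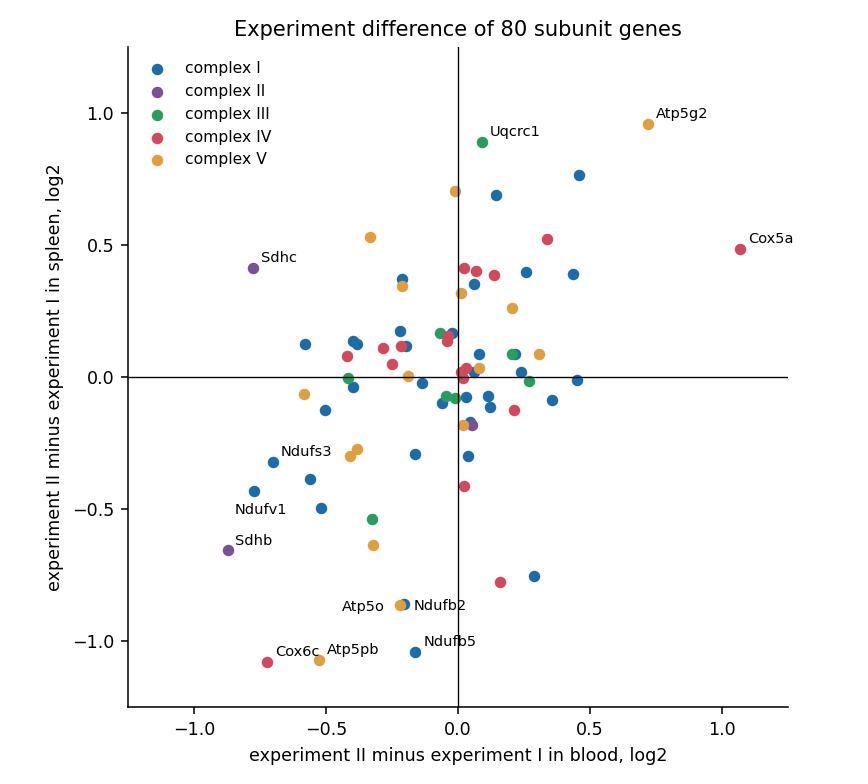
Experiment II minus experiment I log2 difference of the 80 subunit genes in spleen (vertical axis) against blood (horizontal axis), coloured by complex. Atp5g2 and Cox5a are higher in experiment II in both tissues, Sdhb, Cox6c and Atp5pb are lower in both, and Sdhc is higher in spleen and lower in blood.

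Spleen and blood were normalised apart, so their levels are described per mouse with no test. Over the 48 mice the median spleen minus blood difference of the 80 genes had a median of 0.41, against 0.14 over all genes. By complex it was 0.71 in complex I, 0.82 in complex II, 0.40 in complex III, 0.07 in complex IV and 0.35 in complex V. Cox6a2, Ndufa9, Ndufb7, Ndufc2 and Ndufv2 were higher in spleen in all 48 mice, with a median of 1.47 for Cox6a2, and 0 of the 80 were lower in all mice, where 17.7% of all genes were higher and 0.428% lower in all mice. At the other end, Uqcrh was higher in spleen in 1 of 48 mice (median -0.98) and Atp5l in 2 of 48 (median -1.08). These genes therefore did not shift as one block between the tissues.

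The genes also differed in how they varied from mouse to mouse within a group. After removal of group and experiment means, the mean correlation of gene pairs over 48 spleen arrays was 0.18 within a complex and 0.17 between complexes, against 0.0036 over all gene pairs on the array. In blood it was 0.22 within a complex and 0.12 between. These values were larger in experiment I, at 0.20 within and 0.20 between in spleen and 0.25 within and 0.13 between in blood, than in experiment II, at 0.14 within and 0.13 between in spleen and 0.05 within and 0.04 between in blood (24 arrays each). Uqcrh and Atp5l, of different complexes, were the closest pair in spleen at r = 0.94, with 0.92 in experiment II and 0.95 in experiment I. Ndufb5 and Ndufs8, both of complex I, were the most opposed pair in spleen at r = -0.75. Ndufa3 and Ndufv1 were opposed in spleen at -0.19 in experiment II and -0.76 in experiment I. All of these correlations are descriptions.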

How the data were processed

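Spleen and blood RNA of 48 mice was hybridised to 96 Illumina bead arrays, 1 for each tissue of a mouse. The authors deposited 1 table of linear intensity values, in which arrays of a tissue hold the same sorted values within 3.73 intensity units in spleen and 1.05 in blood, as quantile normalisation leaves them. The background correction is not given in the sources used here, and limma is named in the submitters' processing notes. The number of arrays limits the precision.

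Probes were named from GEO's platform annotation: of 25697 probes, 23978 had 1 symbol, 0 had several and 1719 had none, which gave 16593 genes, each read from its brightest probe. The log2 values were fitted for each tissue with limma 3.58.1 (R 4.3.3), with terms for the 4 groups of genotype and day and for experiment. The genotype difference in spleen against blood was fitted on spleen minus blood of each mouse. P-values were adjusted by Benjamini-Hochberg over all genes, at 0.05. The replicates of a group are different mice, and a shared mouse number links only the tissues of that mouse. After group and experiment terms were fitted, the residuals of the arrays of a mouse correlated at 0.016, pooled over genes.

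Genes named are, in each comparison, up to 10 called members in each direction by size with equal sign in the experiments, up to 3 per complex by p, the 5 smallest p-values where under 5 were called, the tissue-specific isoforms with their partners, up to 4 called genes of each pathway list, and Ncf1. Other genes named were chosen after their values were seen. The members, lists and tests were chosen with earlier results of these data known. The tests between experiments, the first component and the plasmacytoid list were added after the values were seen. The fits were tested on simulated data. Alternatives were other normalisations, probe and gene filters, single experiments, array weights, a mouse block and left-out arrays.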

Additional observations from a re-analysis of the deposited data

Results flagged for a closer look

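Atp5b drew attention because its genotype difference had opposite signs in the tissues, and spleen minus blood was 0.27 ± 0.06 (adjusted p = 0.0015 in limma). For Cox6a2 the genotype difference was lower in spleen than in blood, at -0.43 ± 0.11 (adjusted p = 0.011 in limma). It missed the threshold in experiment I alone (-0.36, adjusted p = 0.83 in limma) and without the mice that had raised pancreatic transcripts in either tissue. Both fits held fewer mice. Mean Cox6a2 was 8.10 in spleen and 6.67 in blood, where the median gene read 6.47 and 6.25. The part of the lower blood signal was not tested.

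The day difference in spleen was unlike between experiments for 18 of the 80 genes, by a test of that difference. It was higher in experiment II than in experiment I by 0.88 for Ndufs8, 0.80 for Cox5b and 0.78 for Ndufs7, and lower, at -0.50 for Ndufa10 and -0.29 for Ndufb8. In blood the day difference was unlike between experiments for 1 gene, Ndufa1.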

How the results depend on the processing

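Of 157 counts of called subunit genes under the alternatives, 130 stayed within 1.5 times the reported count or stayed at 0, 15 were smaller and 12 larger. Of 898 values of called genes among those named, 813 kept their call, 85 missed the threshold and 0 reversed. Most of these genes were named by a rule that asks for an equal sign in both experiments. A reversal in a single experiment was thus largely excluded beforehand, and the 0 is no measure of stability between experiments. Among the differences between experiments, only Sdhd in spleen missed it, under 1 of 10 alternatives. The spleen genotype calls over both days were less stable. Of 13 alternatives, Ndufb8 and Ndufv2 missed the threshold under 6, Ndufv1 under 4, Atp5o under 3, Cox6b2 under 2 and Cox6a2 under 0. In spleen, the 6 genes called between genotypes over both days became 2 without an experiment term, 3 in experiment I alone, 2 in experiment II alone, 3 with a mean-variance trend and robust fit, and 3 without the 4 spleen arrays that lay with the other day. The 1 call at day 15 became 0 in either experiment alone, and the 2 calls at day 44 became 1 without an experiment term, 1 in experiment I alone and 1 with array weights. The 35 calls between days became 22 without an experiment term, 0 in experiment II alone and 10 without the arrays with raised pancreatic transcripts. In blood, where 0 were called, experiment II alone gave 4 for genotype over both days, where 2.19% of all genes were higher and 1.89% lower. It gave 14 between days, where 3.06% of all genes were higher and 1.74% lower. It also gave 3 for genotype at day 44, 6 at day 15 and 4 for genotype by day. Array weights gave 1 for genotype and 1 for day, and leaving out the arrays with raised pancreatic transcripts gave 3 for genotype and 2 for day. The 2 genes whose genotype difference was unlike between tissues became 0 in experiment I alone and 4 in experiment II alone, with array weights and without the mice of the pancreatic arrays. With the mouse as a random replicate block in 1 fit of all arrays, the 2 spleen calls at day 44 became 1, the 6 over both days 4 and the 35 between days 36. Where no share of all genes is given here or above, it was not computed, and those counts are not read as results about these genes. The cause of the changes under the alternatives was not tested. Genes near the background are limited by signal.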
